A study of Mus musculus with 10 samples.

Results

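The CA2/CA3 pyramidal neuron nuclei described here were 1083 of the 15560 nuclei with at least 500 UMIs in single-nucleus RNA sequencing of the mouse hippocampus, a share of 6.96% (exact binomial 95% interval 6.57 to 7.37). A UMI (unique molecular identifier) stands for 1 captured transcript molecule. A nucleus was a member if it held at least 4 UMIs from at least 3 of 6 marker genes (Nectin3, Trps1, Cpne4, Ccbe1, Adamts9 and Iyd) and if that sum was above the sums of the 6 CA1 markers and of the 6 subicular or cortical markers. It could hold at most 1 UMI each of Gad1 with Gad2, of Dcn, and of Prox1 with Glis3, where Gad1 and Gad2 mark inhibitory neurons and Prox1 and Glis3 dentate granule neurons. The limit on Dcn, which fibroblasts and some excitatory neurons express, left out 12 nuclei. Because measured values chose the members, everything below is a description of these nuclei, with no test.

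The study has 10 samples, each from the hippocampus of C57B/6J mice that were wild type, had an age of 4 to 7 months and received no stimulation. They form 1 group, although 4 of their titles call them RNASET2 controls. Nuclei came from frozen tissue and were sorted with the DNA dye 7AAD, and about 5000 per sample were loaded for droplet capture. The deposited matrix joins 15661 barcodes of all samples under 7 barcode suffixes, called barcode sets here, which no label ties to a sample, so all nuclei were treated as 1 sample and the sets are shown side by side without being replicates.

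The hippocampal circuit passes from dentate granule neurons through their mossy fibres to CA3, from CA3 through the Schaffer collaterals to CA1, and on to the subiculum. CA3 pyramidal neurons also excite one another through recurrent collaterals, and they are known for large mossy fibre synapses, for kainate receptors at those synapses and for burst firing. CA2 is a narrow field between CA3 and CA1 whose pyramidal neurons are known for social memory, for vasopressin receptors and for weak synaptic potentiation. The marker rule takes CA2 and CA3 neurons together, and nuclei with CA2 markers are set apart further below.

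The members were found in every barcode set. Sets 1 to 7 held 161, 217, 180, 137, 150, 236 and 2 of them, which were 5.31, 7.67, 7.68, 6.57, 6.75, 9.90 and 0.300% of the nuclei of each set. Their median UMIs per nucleus were 14313, 15190, 16469 and 18106 in sets 1 to 4 but 3943 and 3531 in sets 5 and 6, and the 2 members of set 7 had a median of 9068. Over all members the median was 10630 UMIs from 3532 genes, and mitochondrial transcripts made up 0.0111% of the UMIs. No barcode sequence was shared between members, while 21 sequences in the whole matrix occurred in more than 1 set. Sharing between a member and a nucleus outside the members was not counted. The doublet caller Scrublet marked 11 members and 219 of the 15560 nuclei in all. It marked under 0.5% in sets 2, 5, 6 and 7, where it is not taken to have worked, and no nucleus was removed.

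The step of the rule that removed most candidates near the end was the limit on Prox1 with Glis3, which took 541 of 1624 nuclei and left the 1083. Members held a median of 29 marker UMIs and at most 232. Of the 6 markers, 254 members had UMIs of 3, 334 of 4, 402 of 5 and 93 of all 6. At the threshold, 33 members had exactly 4 marker UMIs and 19 nuclei stood just outside with 3 marker UMIs from 3 genes. The 33 had 546 UMIs of Grik4 per 1000000 UMIs, called CPM below, and the 19 had 379, both under the 1322 CPM of all members. They had 149 and 152 CPM of Dpf3, and 455 and 474 CPM of Kcnh7. Nuclei on either side of the threshold were thus alike in these genes and lay between CA1 nuclei and the bulk of the members.

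The comparison classes were built by mirrored rules. They were 1440 CA1 nuclei, 1422 dentate granule nuclei, 1480 subicular or cortical nuclei and, as a gauge of free RNA, 2863 oligodendrocyte nuclei. Ranges over the sets run over the 6 sets with at least 50 CA2/CA3 and 50 CA1 nuclei (sets 1 to 6), or the 5 such sets for dentate granule nuclei (sets 1 to 4 and 6). A level is the sum of UMIs over the nuclei of a class per 1000000 UMIs of that class, and every 95% interval covers counting error only.

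The markers of the rule set the members apart by construction. Trps1, a zinc finger transcriptional repressor, stood at 1581 CPM in members (1206 to 2000.5 over the sets), 65.2 in CA1 nuclei and 45.9 in dentate granule nuclei. Nectin3, an adhesion molecule, was at 372 CPM (283 to 415), 32.3 and 9.78. Iyd, iodotyrosine deiodinase, stood at 17.0 CPM (10.6 to 35.7), against 0.134 and 3.09. Cpne4, a copine, and Ccbe1, a secreted protein, were less confined, with 293 and 217 CPM in dentate granule nuclei beside 1019 and 661 in members.

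Of the 9 CA3 markers that the rule did not use, 8 were higher in members than in both other classes and Dkk3 was not. Grik4 encodes a high-affinity kainate receptor subunit known for its place in CA3. In sets 1 to 6 its level in members was 906, 1320.2, 1392, 1551, 1325 and 1618 CPM, and in CA1 nuclei it was 61.6, 148, 135, 138, 106 and 138 CPM. Every set of members was above every set of CA1 nuclei and of dentate granule nuclei, which ranged from 283 to 431 CPM. Grik4 was 10.3-fold (95% 9.87 to 10.8) higher than in CA1 and 3.41-fold (95% 3.30 to 3.52) higher than in dentate granule nuclei. With every nucleus thinned to 2000 UMIs, 84.4% of members held a Grik4 UMI, against 20.3% of CA1, 48.7% of dentate granule and 14.1% of oligodendrocyte nuclei. Before thinning the shares were 94.2, 45.3, 83.9 and 15.7%, at median depths of 10630.0, 9759, 7690.5 and 1762 UMIs. Thinning left out 14, 23, 37 and 1706 shallower nuclei of these classes.

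Mndal, an interferon-inducible gene, was measured at 51.5, 101, 71.6, 70.1, 41.3 and 42.6 CPM in members of sets 1 to 6 and at 0, 2.45, 1.64, 1.33, 0 and 5.04 in CA1 nuclei. Members were higher in each set, by 44.9-fold (95% 30.0 to 70.5) over all sets, but Mndal overlaps Ifi211 and Ifi203 on the same strand, so its share of the reads is uncertain. Bok, a Bcl-2 family gene, stood at 25.2 CPM in members, 2.94 in CA1 and 3.01 in dentate granule nuclei. Cdh24, a cadherin, was at 43.4, 12.7 and 3.26 CPM, and Homer3, a postsynaptic scaffold protein, at 66.8, 10.5 and 16.1 CPM. Socs2, a suppressor of cytokine signalling, stood at 97.0, 29.1 and 3.34 CPM. Galnt3, a mucin-type glycosyltransferase, was measured at 84.3, 28.1 and 27.3 CPM. Over the alternative settings other than unscaled means, log2 ratios ran from 2.78 to 3.99 for Bok and from 1.40 to 2.39 for Socs2. Dkk3, a secreted Wnt modulator often listed as a CA3 marker, stood at 129.9 CPM in members (110.0 to 153), below the 157 of CA1 nuclei (126 to 183) with overlapping sets, and far above the 8.69 of dentate granule nuclei. These 9 markers were chosen with earlier results of these data known, and the share of all genes higher than in both classes is not given here. The 8 higher markers thus describe the members and do not test the CA3 side of the label. The CA2 markers did not set the members as a whole apart from both classes. The 8 CA2 markers summed to 92.0 CPM (84.0 to 98.7) in members, 34.2 CPM (27.5 to 45.3) in CA1 and 127 CPM (103 to 142) in dentate granule nuclei, and 9 further CA2 markers to 1334 CPM (1248 to 1495), 1385 CPM (1329.9 to 1429.6) and 1458 CPM (1369 to 1687). The excitatory markers were also present, with Slc17a7, the vesicular glutamate transporter, at 285 CPM in members, 255 in CA1, 214 in dentate granule and 18.7 in oligodendrocyte nuclei.

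**Figure D1:**
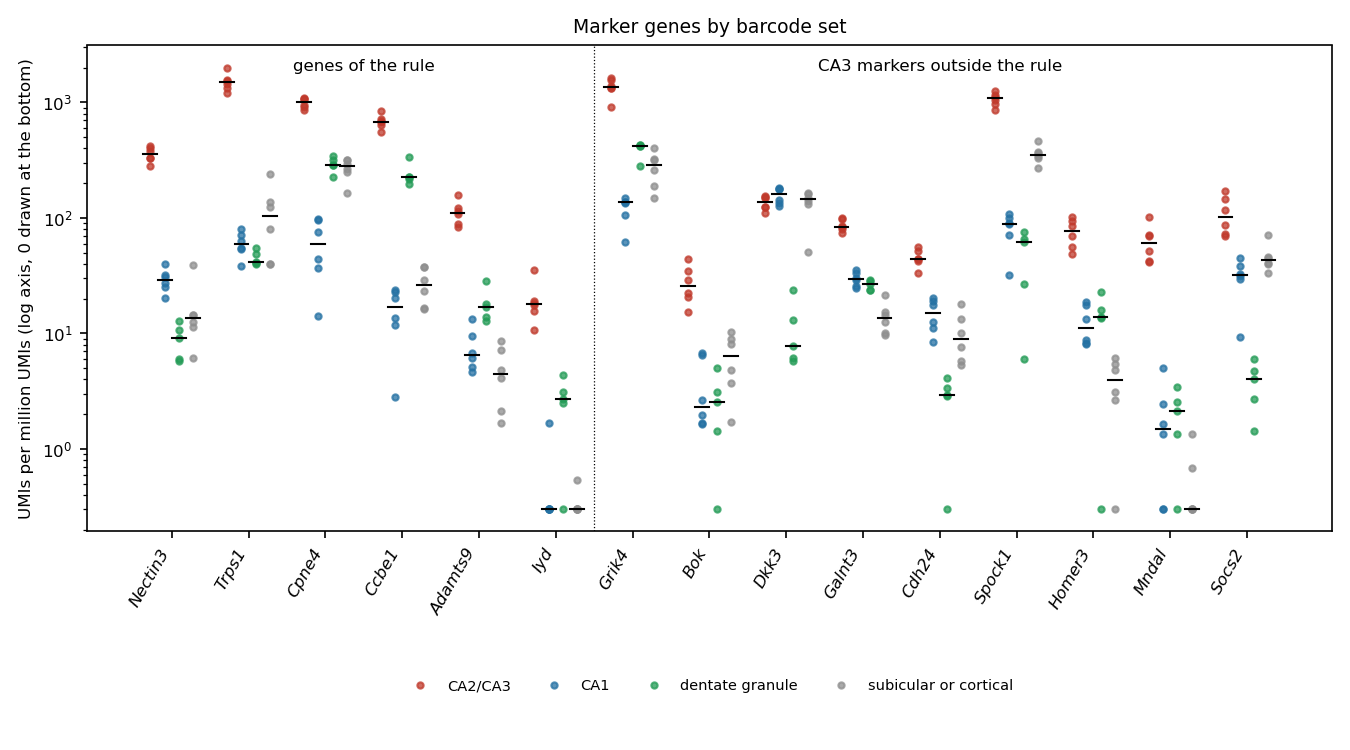
Levels of 15 marker genes (UMIs per 1000000 UMIs, log axis with 0 drawn at the bottom) in CA2/CA3, CA1, dentate granule and subicular or cortical nuclei; each point is a barcode set with at least 50 nuclei and each bar the median of the sets. The points of Grik4 in CA2/CA3 nuclei lie between 906 and 1618 CPM, above all points of the other classes, while those of Dkk3 overlap with CA1 nuclei.

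Markers of glial, vascular and inhibitory cells were present at low levels in members. The thalamic list summed to 761 CPM (569 to 970 over the sets) in members. Its sum was 881 CPM (458 to 1026) in CA1 and 1351 CPM (1212 to 1635) in dentate granule nuclei. Oligodendrocyte markers summed to 271 CPM (96.7 to 306) over the sets in members, 175 CPM (80.6 to 221) in CA1 and 886 CPM (285 to 1345) in dentate granule nuclei, beside 18407 CPM in oligodendrocyte nuclei. Astrocyte markers summed to 23.4 CPM (11.5 to 27.6) in members, 10.02 CPM (5.43 to 12.3) in CA1 and 70.7 CPM (29.7 to 86.7) in dentate granule nuclei. Microglial markers summed to 167 CPM (82.7 to 219.9), 147 CPM (84.0 to 185) and 274 CPM (85.4 to 369.8), vascular markers to 2.57 CPM (1.59 to 3.87), 1.87 CPM (1.22 to 2.80) and 1.25 CPM (0 to 3.27), and markers of oligodendrocyte precursors to 7.48 CPM (0 to 13.6), 2.61 CPM (1.68 to 5.43) and 8.95 CPM (0 to 16.1). Cldn5 of the 5 vascular markers and Gbx2 of the 5 thalamic markers had no UMI in members, and all other genes of these lists had at least 1 UMI. The inhibitory list summed to 106 CPM (75.9 to 143) in members and 56.5 CPM (32.7 to 139.9) in CA1 nuclei. It summed to 1942 CPM (1635 to 2130.3) in dentate granule nuclei, where Adarb2 alone gave 1865 CPM. Dentate granule nuclei thus carried more oligodendrocyte, astrocyte and microglial marker RNA than members did, and its part in the comparisons below was not tested beyond leaving out nuclei with more than 1 UMI of such a list.

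Members differed from CA1 pyramidal nuclei at many genes. Of 10965 genes with at least 100 UMIs over both classes, 580 (5.29%) were at least 2-fold higher in CA2/CA3 nuclei and 405 (3.69%) at least 2-fold lower. The sets did not overlap for 611 genes higher in members (5.57%) and 527 lower (4.81%). The median log2 ratio of all these genes was 0.02. Members held more UMIs per nucleus than CA1 nuclei (mean 12219 against 10392), and mean UMIs per nucleus without scaling gave 818 genes higher and 294 lower, with an all-gene median of 0.25.

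Dpf3, a subunit of the BAF chromatin remodelling complex, was among the genes furthest above CA1. Its lowest, median and highest levels over the sets were 247, 288 and 346 CPM in members and 4.20, 5.54 and 10.1 in CA1 nuclei, 46.8-fold (95% 38.0 to 58.2) higher. Tmem108, a neuronal transmembrane protein, was at 659, 679 and 743 CPM in members and 16.8, 33.2 and 35.3 in CA1 nuclei, 22.4-fold (95% 20.4 to 24.7) higher. Both genes were separated from CA1 in every set with a wide gap. Smoc2, a secreted calcium-binding matrix protein, stood at 110.3, 119 and 152 CPM against 1.36, 2.44 and 3.91, 47.6-fold (95% 34.8 to 66.9) higher. Tspan18, a tetraspanin, was measured at 69.3, 82.3 and 126 CPM against 0, 0.500 and 1.96, 86.2-fold (95% 52.0 to 154) higher. Cdh9, a cadherin known at the synapse between mossy fibres and CA3 neurons, stood at 462, 601 and 771 CPM against 21.8, 38.6 and 54.6, 14.9-fold (95% 13.7 to 16.1) higher. Rerg, a Ras-like GTPase, stood at 249.8 CPM against 15.7, 15.9-fold (95% 13.9 to 18.2) higher. Spock1, a testican proteoglycan, was at 1092 CPM against 84.0, 13.0-fold (95% 12.3 to 13.8) higher, but oligodendrocyte nuclei held 1169.7 CPM of it. The Spock1 ratio to CA1 was 3.70 on the log2 scale and 4.21 without nuclei that held more than 1 UMI of a non-neuronal marker list. Other settings gave log2 ratios from 6.01 to 7.36 for Tspan18.

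On the other side, Kcnh7, an ether-a-go-go related potassium channel, stood at 61.5, 90.1 and 181 CPM in members and 1892, 2085 and 2824 in CA1 nuclei, 18.3-fold (95% 17.4 to 19.3) lower. The gene Gca overlaps it on the other strand. Ror1, a Wnt5a receptor, was measured at 12.7, 24.8 and 33.5 CPM against 299, 357 and 408, 13.8-fold (95% 12.4 to 15.4) lower. Neither gene overlapped between the classes in any set. Arhgap12, a GTPase-activating protein, stood at 32.3 CPM against 419.6, 13.0-fold (95% 11.8 to 14.3) lower. Stac, an adaptor protein of calcium channels, was at 7.78 CPM against 135, 17.3-fold (95% 14.2 to 21.3) lower. Both heparan sulfate sulfotransferases of the group were low, Ndst3 at 54.9 CPM against 629, 11.4-fold (95% 10.6 to 12.4) lower, and Ndst4 at 52.1 CPM against 483, 9.26-fold (95% 8.57 to 10.03) lower. Adgrl2, a latrophilin adhesion receptor known at CA1 synapses, stood at 17.3 CPM against 199, 11.5-fold (95% 10.1 to 13.2) lower. Across the alternatives, log2 ratios ranged from -4.77 to -4.02 for Stac and from -4.22 to -3.04 for Ndst4.

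**Figure D2:**
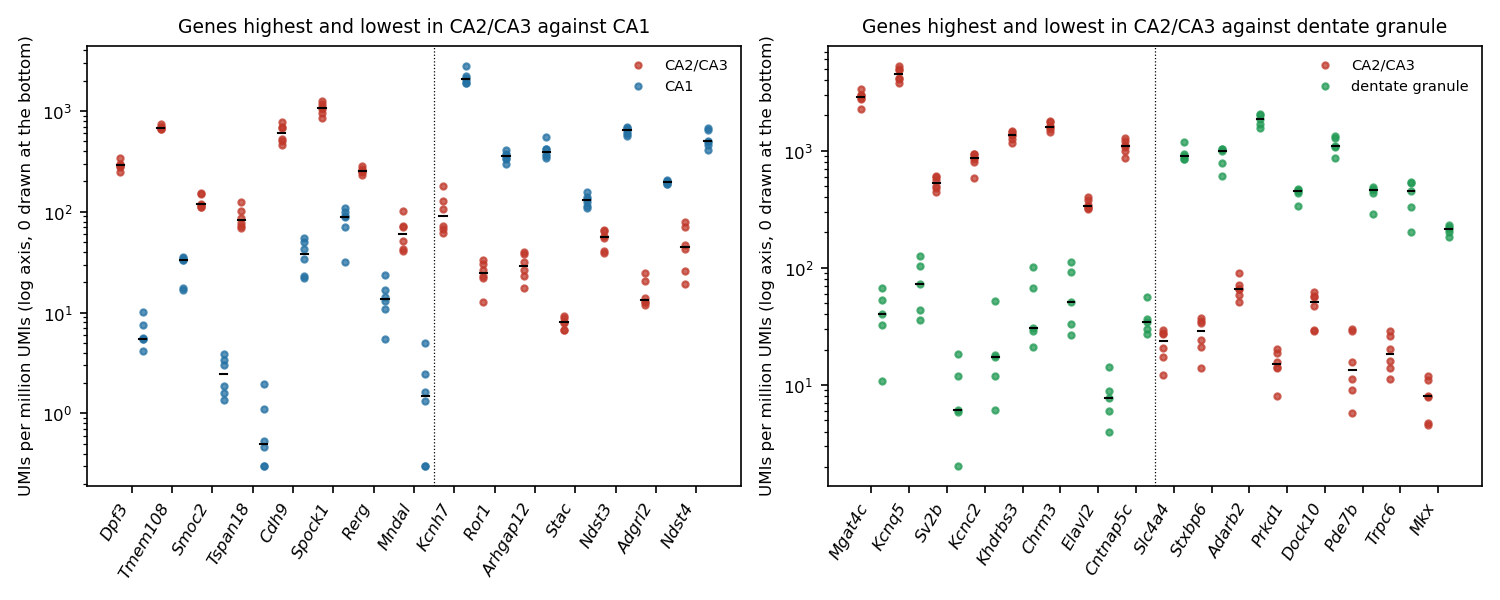
Levels (UMIs per 1000000 UMIs, log axis with 0 drawn at the bottom) of the 8 highest and 7 of the 8 lowest genes of CA2/CA3 nuclei against CA1, and of the 8 highest and 8 lowest against dentate granule nuclei; each point is a barcode set and each bar the median of the sets. For each of these genes the points of both classes are apart, as for Dpf3 at 247 to 346 CPM in CA2/CA3 and 4.20 to 10.1 in CA1 nuclei.

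Promoters of 4 of these genes show what DNA lies before the starts of genes that separate CA2/CA3 from CA1 nuclei. Of the 16 genes named against CA1, 10 had an entry in the RefSeq promoter table (build GRCm38.p6), and the first pair on each side whose RefSeq start lay within 50 bases of the GENCODE start was taken. The starts were 20 bases apart for Dpf3 and 0 for the other 3 genes. Each sequence is the 250 bases before the RefSeq start, written 5′ to 3′ on the gene's strand, with CG dinucleotides in capitals. Dpf3 (chr12:83213745-83487716, minus strand) and Tmem108 (chr9:103482947-103761837, minus strand) are the higher pair, Kcnh7 (chr2:62693414-63184287, minus strand) and Ror1 (chr4:100095791-100444765, plus strand) the lower pair (gene spans from GENCODE M21 on GRCm38).
Dpf3: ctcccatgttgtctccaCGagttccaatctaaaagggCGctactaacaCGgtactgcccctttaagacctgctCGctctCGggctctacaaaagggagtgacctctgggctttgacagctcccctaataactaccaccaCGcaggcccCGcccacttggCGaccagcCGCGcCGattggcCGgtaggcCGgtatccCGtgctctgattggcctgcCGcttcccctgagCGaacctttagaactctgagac
Tmem108: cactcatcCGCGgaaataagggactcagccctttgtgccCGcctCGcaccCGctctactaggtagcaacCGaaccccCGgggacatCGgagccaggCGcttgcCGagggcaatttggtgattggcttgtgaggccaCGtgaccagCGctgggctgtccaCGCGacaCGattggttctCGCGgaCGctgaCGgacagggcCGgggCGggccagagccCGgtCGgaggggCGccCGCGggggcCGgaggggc
Kcnh7: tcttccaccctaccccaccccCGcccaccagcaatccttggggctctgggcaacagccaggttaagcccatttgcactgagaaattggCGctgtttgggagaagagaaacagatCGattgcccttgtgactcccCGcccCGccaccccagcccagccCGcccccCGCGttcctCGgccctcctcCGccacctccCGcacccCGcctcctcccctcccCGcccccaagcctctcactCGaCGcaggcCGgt
Ror1: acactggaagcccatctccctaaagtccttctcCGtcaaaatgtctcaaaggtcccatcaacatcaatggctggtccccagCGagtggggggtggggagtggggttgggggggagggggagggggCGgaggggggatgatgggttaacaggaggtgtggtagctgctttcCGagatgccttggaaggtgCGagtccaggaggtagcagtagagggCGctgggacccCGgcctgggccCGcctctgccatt

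These windows lie at chr12:83487737-83487986, chr9:103761838-103762087, chr2:63184288-63184537 and chr4:100095541-100095790. They hold 16, 27, 16 and 8 CG dinucleotides, where 27025 promoters of the same length hold a median of 6 (quartiles 2 and 16). Their GC contents are 58.8, 69.2, 67.6 and 62.4%, beside a median of 52.0%. All 4 are thus richer in CG than the median promoter, on the higher and on the lower side alike.

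Against dentate granule nuclei, 819 of 10872 genes (7.53%) were at least 2-fold higher in CA2/CA3 nuclei and 844 (7.76%) at least 2-fold lower. The 5 compared sets did not overlap for 990 genes higher (9.11%) and 1058 lower (9.73%). The median log2 ratio of all genes was -0.07. Dentate granule nuclei held a mean of 8412 UMIs, and mean UMIs per nucleus without scaling gave 1913 genes higher and 447 lower with an all-gene median of 0.47, so the directions below are relative to total UMIs.

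Mgat4c, an N-glycan glycosyltransferase gene (chr10:101681487-102391469), stood furthest above dentate granule nuclei. In sets 1 to 4 and 6 its level in members was 3385, 2960.3, 2987, 2756 and 2788 CPM and in dentate granule nuclei 10.8, 67.4, 40.3, 32.5 and 53.5 CPM, 75.8-fold (95% 69.2 to 83.2) higher. All sets of members exceeded all sets of granule nuclei. Kcnq5, a channel of the M-current, was measured at 3759, 4897 and 5324 CPM (lowest, median and highest set) against 35.8, 72.8 and 125, 69.8-fold (95% 65.1 to 74.95) higher. Sv2b, a synaptic vesicle glycoprotein, stood at 443, 563 and 606 CPM against 2.02, 6.07 and 18.5, 63.1-fold (95% 52.0 to 77.4) higher. Kcnc2, the fast potassium channel Kv3.2, stood at 807, 884 and 939.8 CPM against 6.07, 17.1 and 52.3, 37.5-fold (95% 33.3 to 42.5) higher. The RNA-binding proteins Elavl2 and Khdrbs3 stood at 349 CPM against 8.86, 39.4-fold (95% 32.5 to 48.2) higher, and at 1358 CPM against 39.3, 34.6-fold (95% 31.5 to 37.9) higher. Chrm3, the M3 acetylcholine receptor, was at 1658 CPM against 53.6, 30.9-fold (95% 28.6 to 33.5) higher, and Cntnap5c, a contactin-associated protein, at 1052 CPM against 39.9, 26.4-fold (95% 24.1 to 29.0) higher. With other processing choices, log2 ratios ran from 5.72 to 6.79 for Sv2b and from 4.89 to 6.13 for Kcnc2.

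Slc4a4, a sodium bicarbonate cotransporter (chr5:88886818-89239653), was the gene furthest below. It stood at 29.2, 12.1, 27.7, 20.6 and 17.3 CPM in members and 1190.2, 845, 933, 907 and 844 CPM in dentate granule nuclei of the same sets, 44.4-fold (95% 39.5 to 50.1) lower. Stxbp6, an amisyn that binds SNARE proteins, was measured at 29.6 CPM against 953, 32.2-fold (95% 29.1 to 35.7) lower. Adarb2, an RNA editing enzyme relative without activity, stood at 65.2 CPM against 1865, 28.6-fold (95% 26.7 to 30.6) lower. All sets of granule nuclei were above all sets of members for these 3 genes. The signalling enzymes Prkd1, Dock10 and Pde7b stood at 16.9 CPM against 452, 26.8-fold (95% 23.5 to 30.8) lower, at 52.9 CPM against 1185, 22.4-fold (95% 20.8 to 24.2) lower, and at 17.2 CPM against 415, 24.2-fold (95% 21.2 to 27.8) lower. Trpc6, a cation channel, was at 21.5 CPM against 459, 21.3-fold (95% 18.9 to 24.1) lower, and Mkx, a homeobox transcription factor, at 8.31 CPM against 208, 25.02-fold (95% 20.7 to 30.6) lower. Over the alternative settings, log2 ratios ran from -5.61 to -4.81 for Slc4a4, from -7.01 to -4.86 for Stxbp6, from -5.37 to -4.12 for Adarb2, from -5.18 to -3.98 for Prkd1, from -5.77 to -3.96 for Dock10 and from -5.35 to -3.89 for Pde7b.

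Gene lists for neuronal functions are described next by their counts and medians over genes with at least 100 UMIs, each to be read against the shares of all genes above (5.29 and 3.69% against CA1, 7.53 and 7.76% against dentate granule). Against CA1 and dentate granule nuclei, 5 list medians were 1.5-fold or more from 1, and those of extracellular matrix and immediate early genes against dentate granule nuclei turned sign under some settings. Of the other 37 medians, 25 turned sign under at least 1 setting, so no direction of those lists as a whole is given. Under each setting a median runs over the genes that still met the UMI limit, so it can cover fewer genes.

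**Figure D3:**
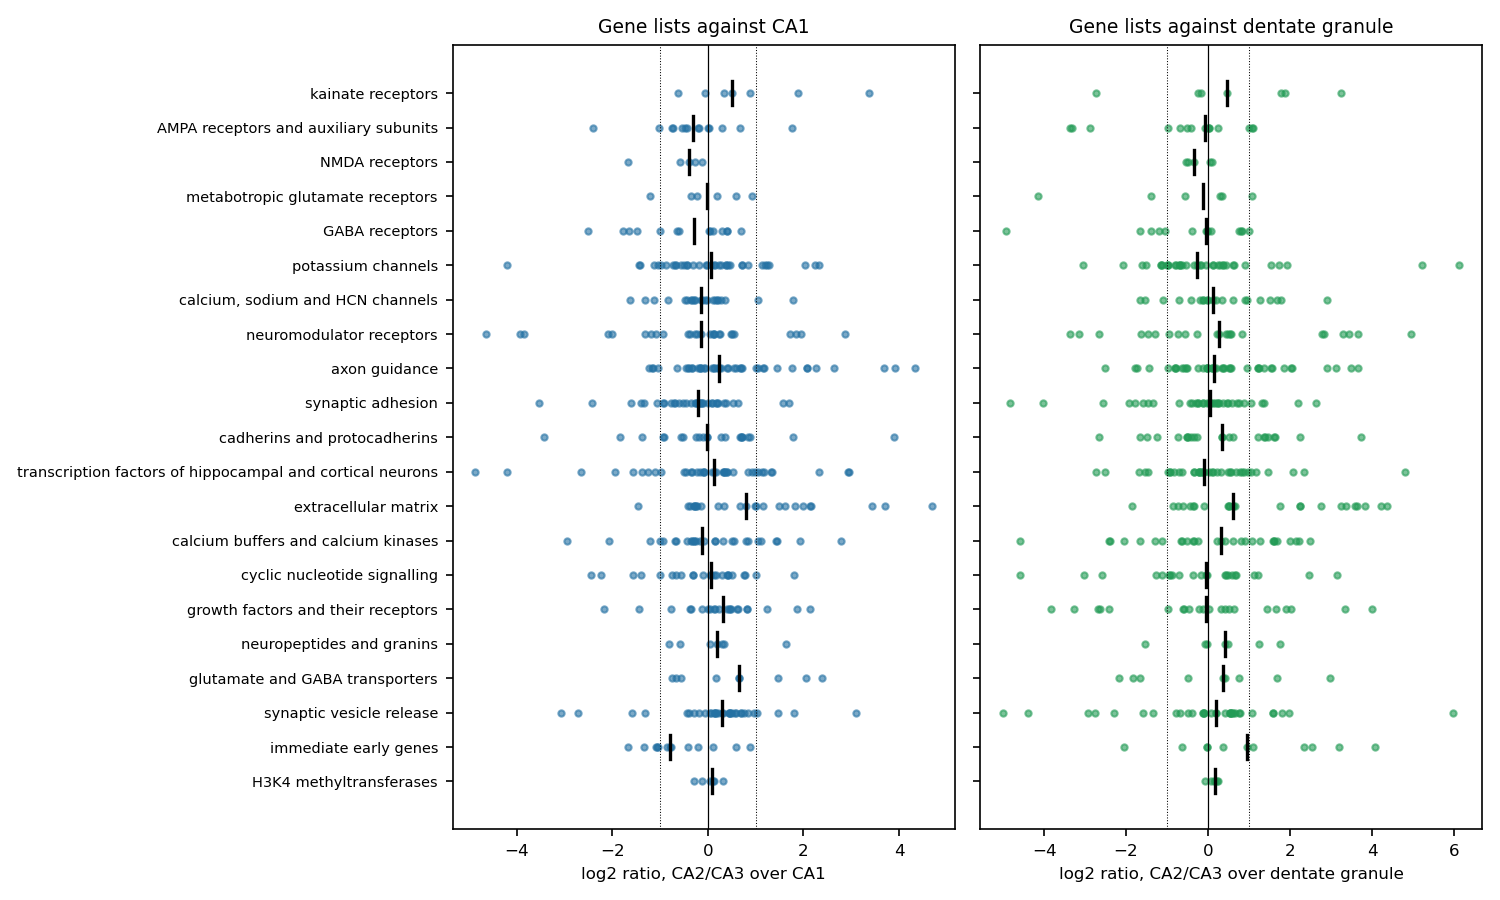
Log2 ratios of CA2/CA3 to CA1 nuclei and to dentate granule nuclei for the genes of 21 lists with at least 100 UMIs; each point is a gene, each black bar the median of a list, and dotted lines mark 2-fold. The extracellular matrix list has the highest median against CA1 nuclei (0.80) and immediate early genes the lowest (-0.79).

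Among glutamate receptors, the kainate group stood out by 2 genes. Of its 7 genes, 2 were at least 2-fold higher than in CA1 and 0 lower, with a median log2 ratio of 0.50. These were Grik4 and Neto1, the auxiliary subunit of kainate receptors, at 668 to 1024 CPM over the sets in members against 98.1 to 295 in CA1 nuclei, 3.69-fold (95% 3.55 to 3.83) higher. Against dentate granule nuclei 3 were higher and 1 lower. Neto1 was 3.67-fold (95% 3.53 to 3.82) and Neto2, the second auxiliary subunit, 9.51-fold (95% 7.91 to 11.5) higher, while Grik3 stood at 14.0 CPM against 93.0, 6.65-fold (95% 5.69 to 7.81) lower. Of 14 AMPA receptor genes and auxiliary subunits, 1 was higher and 2 lower than in CA1. Cacng2, the auxiliary subunit stargazin, stood at 133 CPM against 39.5, 3.37-fold (95% 3.07 to 3.70) higher. Cnih3, a cornichon, was measured at 14.9 CPM against 78.3, 5.26-fold (95% 4.52 to 6.14) lower, and Shisa7 at 46.6 CPM against 94.0, 2.02-fold (95% 1.83 to 2.22) lower. Relative to the dentate granule class, 2 of 15 were higher and 3 lower, with Cnih3 9.94-fold (95% 8.57 to 11.6), Shisa9 7.31-fold (95% 6.93 to 7.70) and Gsg1l 10.4-fold (95% 8.63 to 12.6) lower. Of 5 NMDA receptor genes, only Grin3a was 2-fold apart from CA1 (24.3 CPM against 77.1, 3.18-fold lower, 95% 2.81 to 3.61), with overlapping sets, and 0 from dentate granule nuclei. Of 6 metabotropic receptors, Grm3 was lower than in CA1 at 51.7 CPM against 119, 2.30-fold (95% 2.11 to 2.52) lower, and Grm2, a presynaptic autoreceptor, was 17.9-fold (95% 11.5 to 29.2) lower than in dentate granule nuclei. Other settings gave log2 ratios from -3.87 to -2.70 for Shisa9, from -3.97 to -3.01 for Gsg1l and from -5.97 to -3.58 for Grm2.

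None of the 14 GABA receptor genes was at least 2-fold higher than in CA1 and 4 were lower. Gabra3 stood at 18.4 to 36.9 CPM over the sets in members and 42.0 to 96.3 in CA1 nuclei, 3.14-fold (95% 2.78 to 3.55) lower, and Gabrg3 at 316 CPM against 879, 2.79-fold (95% 2.69 to 2.89) lower. These subunits of the GABA-A receptor did not overlap between sets. Gabrd, the delta subunit of extrasynaptic receptors, was at 1.21 CPM against 6.82, 5.64-fold (95% 3.31 to 10.2) lower, with overlapping sets, and 30.6-fold (95% 18.6 to 53.9) lower than in dentate granule nuclei. In the comparison with granule nuclei 1 of 14 was higher and 5 lower, including Gabrb2 (2.64-fold lower, 95% 2.52 to 2.77). The higher one, Gabrg3 (2.01-fold, 95% 1.90 to 2.12), turned to a log2 ratio of -0.16 without nuclei that held non-neuronal markers. Across the alternatives, log2 ratios ranged from -2.91 to -1.84 for Gabrd and from -2.61 to -1.40 for Gabrg3.

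Of 37 potassium channel genes, 7 were at least 2-fold higher and 5 lower than in CA1. Kcnq5 stood at 3759 to 5324 CPM over the sets in members and 1024 to 1277 in CA1 nuclei, 4.11-fold (95% 4.04 to 4.18) higher. Kcnc1, the fast delayed rectifier Kv3.1, stood at 74.1 CPM against 14.8, 4.99-fold (95% 4.31 to 5.80) higher. Kcng3, a modulatory subunit, was measured at 15.3 CPM against 3.21, 4.76-fold (95% 3.46 to 6.66) higher, and Kcnh1 at 216 CPM against 94.4, 2.29-fold (95% 2.15 to 2.44) higher. Kcnd3, the A-type channel Kv4.3, stood at 396 CPM against 180.4, 2.19-fold (95% 2.09 to 2.30) higher, while its relative Kcnd2 stood at 2357 CPM against 5155, 2.19-fold (95% 2.16 to 2.22) lower. The pair of A-type channels thus lay on opposite sides of CA1. Kcnh7 is described above. Kcnj9, an inward rectifier, and Kcnt1, a sodium-activated channel, were lower with overlapping sets. Against dentate granule nuclei 5 of 37 were higher and 8 lower. Beside Kcnq5 and Kcnc2, the small-conductance channel Kcnn2 stood at 529.6 CPM against 159, 3.33-fold (95% 3.16 to 3.50) higher, and Kcnk1, a tandem-pore channel, at 22.6 CPM against 69.0, 3.05-fold (95% 2.67 to 3.50) lower.

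Calcium channels Cacna1a (P/Q type) and Cacna1c (L type) were the 2 genes of 22 calcium, sodium and HCN channel genes at least 2-fold higher than in CA1, and 3 were lower. Cacna1c stood at 1313 to 2421 CPM over the sets in members and 281 to 741 in CA1 nuclei, 3.42-fold (95% 3.34 to 3.50) higher. Cacna1a was at 1656 CPM against 805, 2.06-fold (95% 2.01 to 2.10) higher. Cacna1g, a T-type channel, stood at 14.6 CPM against 44.8, 3.07-fold (95% 2.62 to 3.63) lower, and Scn3b, a sodium channel beta subunit, at 68.6 CPM against 150.4, 2.19-fold (95% 2.03 to 2.37) lower. Relative to the dentate granule class 5 of 21 were higher and 3 lower, and Scn3a stood at 81.9 CPM against 259.9, 3.17-fold (95% 2.96 to 3.40) lower.

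Of 27 neuromodulator receptor genes, 4 were at least 2-fold higher than in CA1 and 8 lower. The serotonin receptors split. Htr7 was measured at 27.6 to 37.5 CPM over the sets in members and 0.934 to 7.94 in CA1 nuclei, 7.27-fold (95% 5.64 to 9.49) higher. Htr1b stood at 0 to 1.97 CPM against 6.79 to 18.2, 15.3-fold (95% 8.12 to 32.5) lower, and Htr5b at 0 to 4.77 against 8.32 to 15.1, 14.4-fold (95% 7.40 to 32.2) lower. Neither pair of ranges overlapped. Npy2r, a presynaptic neuropeptide Y receptor, was at 20.6 CPM against 5.75, 3.59-fold (95% 2.81 to 4.63) higher. Chrna5, a nicotinic subunit, was almost absent from members (0.378 CPM against 9.36, 24.8-fold lower, 95% 10.4 to 77.4). Adrb1, a beta-adrenergic receptor, stood at 7.10 CPM against 17.6, 2.48-fold (95% 1.96 to 3.18) lower, and Hrh3, the histamine autoreceptor, at 3.40 CPM against 13.6, 3.99-fold (95% 2.88 to 5.64) lower. In the comparison with granule nuclei 6 of 23 were higher and 6 lower. Htr2c, Htr2a and Cnr1, the cannabinoid receptor, were 10.8-fold (95% 8.93 to 13.3), 9.80-fold (95% 6.12 to 16.6) and 7.05-fold (95% 5.70 to 8.81) higher. Oprm1, the mu opioid receptor, was 10.4-fold (95% 9.06 to 11.9) and Npy1r 6.32-fold (95% 5.08 to 7.95) lower. With other processing choices, log2 ratios ran from 2.65 to 4.18 for Htr7, from -5.27 to -3.26 for Htr1b, from -4.82 to -2.87 for Htr5b and from -5.14 to -2.71 for Chrna5. Those to dentate granule nuclei ran from 3.20 to 4.18 for Htr2c, from 2.89 to 4.16 for Htr2a, from 2.46 to 3.60 for Cnr1 and from -3.35 to -2.35 for Npy1r.

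Axon guidance genes held many large differences. Of 43 genes, 13 were at least 2-fold higher than in CA1 and 4 lower, with a median log2 ratio of 0.24, and the same counts were found against dentate granule nuclei with a median of 0.14. Among receptors, Ephb1 was measured at 183 to 302 CPM over the sets in members and 13.6 to 20.8 in CA1 nuclei, 12.9-fold (95% 11.4 to 14.6) higher. Nrp2, a semaphorin co-receptor, stood at 188 to 224 CPM against 34.6 to 53.0, 4.79-fold (95% 4.39 to 5.23) higher, and Nrp1 at 683 CPM against 308, 2.22-fold (95% 2.14 to 2.30) higher. Members were above CA1 in every set for these 3 receptors. The netrin receptors Unc5c, Unc5d and Dcc stood at 2089.8 CPM against 495, 4.22-fold (95% 4.12 to 4.33) higher, at 303 CPM against 48.8, 6.21-fold (95% 5.73 to 6.72) higher, and at 2856 CPM against 1422, 2.01-fold (95% 1.98 to 2.04) higher. Among ligands, Sema5a, a transmembrane semaphorin, was at 72.6 to 147 CPM against 0 to 8.80, 20.1-fold (95% 16.2 to 25.3) higher than in CA1. It was 5.73-fold (95% 5.43 to 6.05) lower than in dentate granule nuclei (505 to 759 CPM), so members lay between. Sema5b stood at 41.2 CPM against 2.74, 15.03-fold (95% 10.9 to 21.2) higher, and Slit2, a ligand of Robo receptors, at 575 CPM against 169, 3.39-fold (95% 3.24 to 3.55) higher. Robo1 was 4.14-fold (95% 3.98 to 4.31) higher and Sema3e 12.6-fold (95% 11.2 to 14.2) higher than in dentate granule nuclei, while Sema6d was 3.34-fold (95% 3.17 to 3.53) lower. Epha10, Efnb2, Sema3a and Ntng1 were the 4 lower than in CA1, of which Epha10 did not overlap (65.5 CPM against 148, 2.25-fold lower, 95% 2.08 to 2.44). Other settings gave log2 ratios from 1.81 to 2.92 for Unc5d.

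Of 36 synaptic adhesion genes, 2 were at least 2-fold higher than in CA1 and 6 lower. Clstn2, a calsyntenin, was measured at 1595 to 2504 CPM over the sets in members against 539 to 759, 3.24-fold (95% 3.17 to 3.31) higher, and Nectin1 at 38.9 CPM against 13.0, 2.99-fold (95% 2.53 to 3.54) higher. Tenm3, a teneurin known to wire CA1 to subiculum, stood at 90.7 to 377 CPM against 861 to 1154, 5.32-fold (95% 5.11 to 5.54) lower. Adgrl3, a second latrophilin, was at 883 CPM against 2238, 2.53-fold (95% 2.48 to 2.59) lower, and C1ql3, a secreted synaptic organiser, at 26.1 CPM against 79.3, 3.04-fold (95% 2.69 to 3.44) lower. Against dentate granule nuclei 5 of 37 were higher and 8 lower. Lrrtm4, a postsynaptic organiser known in granule neurons, stood at 1301 to 1812 CPM against 8322 to 10611, 5.89-fold (95% 5.81 to 5.98) lower. C1ql3 was 16.3-fold (95% 14.6 to 18.2) lower and C1ql2, a ligand of mossy fibre terminals that binds kainate receptors, 28.7-fold (95% 15.8 to 58.1) lower. Tenm4 was 6.25-fold (95% 5.98 to 6.53) and Nrxn3, a neurexin, 4.60-fold (95% 4.53 to 4.66) higher. Of 22 cadherins and protocadherins, 2 were higher (Cdh9 and Cdh24) and 3 lower than in CA1, with Cdh6 at 3.46 to 8.39 CPM against 38.6 to 74.96, 10.7-fold (95% 8.45 to 13.7) lower, and Cdh4 at 25.2 CPM against 90.3, 3.59-fold (95% 3.18 to 4.06) lower. Relative to the dentate granule class 8 of 23 were higher and 4 lower, among them Cdh10 at 467 CPM against 98.6, 4.74-fold (95% 4.45 to 5.05) higher. Cdh7, another of the 8, turned to a log2 ratio of -0.38 without nuclei that held non-neuronal markers. Across the alternatives, log2 ratios ranged from -5.20 to -3.59 for C1ql2.

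Transcription factors separated the fields in both directions. Of 39 genes, 8 were at least 2-fold higher than in CA1 and 8 lower. Genes of the class rules were not taken out of the lists, and this list holds Rorb, a subicular or cortical marker of the rule. Zfpm2, a GATA cofactor, was measured at 492.9 to 710.2 CPM over the sets in members against 93.7 to 149.6 in CA1 nuclei, 5.03-fold (95% 4.80 to 5.29) higher. Lhx9, a LIM homeobox gene, stood at 16.2 CPM against 2.14, 7.60-fold (95% 5.22 to 11.4) higher, and Plagl1 at 18.2 CPM against 2.34, 7.79-fold (95% 5.45 to 11.4) higher. Tle4, a corepressor, and Tshz3 were 2.49-fold (95% 2.31 to 2.69) and 2.55-fold (95% 1.99 to 3.28) higher. Pou3f1, a POU domain factor of CA1, was almost absent from members, at 0 to 2.30 CPM against 19.2 to 67.3, 29.0-fold (95% 16.8 to 55.0) lower. Bcl11b, also called CTIP2 and known in CA1 and granule neurons, stood at 39.7 to 54.1 CPM in members, 257 to 319.7 in CA1 and 275 to 352 in dentate granule nuclei. It was 6.25-fold (95% 5.74 to 6.82) and 6.59-fold (95% 6.05 to 7.20) lower than in these classes, with no overlap. Meis2 was 3.82-fold (95% 3.56 to 4.11) lower than in CA1 but 5.07-fold (95% 4.29 to 6.02) higher than in dentate granule nuclei. Nr3c1, the glucocorticoid receptor, was at 47.1 CPM against 123, 2.61-fold (95% 2.38 to 2.86) lower. In the comparison with granule nuclei 6 of 39 were higher and 5 lower, with Neurod6 at 103 CPM against 3.68, 27.96-fold (95% 20.7 to 38.7) higher, Mef2c at 72.5 CPM against 416, 5.74-fold (95% 5.35 to 6.15) lower, and Nfia at 277 CPM against 759, 2.74-fold (95% 2.64 to 2.85) lower. With other processing choices, log2 ratios ran from 2.81 to 4.58 for Plagl1 and from 1.24 to 2.11 for Tshz3. Those to dentate granule nuclei ran from 2.22 to 3.40 for Meis2.

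Extracellular matrix genes had the highest list median against CA1, a log2 ratio of 0.80, with 11 of 25 at least 2-fold higher and 1 lower. Col12a1 stood at 18.1 to 59.9 CPM over the sets in members against 0 to 3.36 in CA1 nuclei, 25.7-fold (95% 15.9 to 44.6) higher, and Col15a1 at 6.62 to 11.8 against 0 to 1.47, 10.9-fold (95% 6.13 to 20.99) higher. Spock3, a testican like Spock1, was measured at 237 CPM against 53.2, 4.45-fold (95% 4.11 to 4.81) higher. Adamts17, a secreted protease, stood at 196 CPM against 48.8, 4.003-fold (95% 3.69 to 4.35) higher, and Sulf2, a heparan sulfate sulfatase, at 123 CPM against 43.8, 2.81-fold (95% 2.57 to 3.08) higher. Members lay above CA1 in every set for these 5 genes. Adamts2 was the 1 lower gene (14.7 CPM against 40.4, 2.74-fold lower, 95% 2.33 to 3.24). Vcan, counted as higher at a log2 ratio of 1.0, turned to -0.10 without nuclei that held non-neuronal markers, where the list median was 0.36. Against dentate granule nuclei 11 of 25 were higher and 1 lower, and the median of 0.62 turned to -0.077 without those nuclei. Both medians without those nuclei cover only the genes that still had at least 100 UMIs. Col11a1 was 14.3-fold (95% 10.9 to 19.1) and Bcan, the proteoglycan brevican of perineuronal nets, 9.42-fold (95% 6.68 to 13.7) higher, while Col25a1 was 3.62-fold (95% 3.36 to 3.89) lower. Other settings gave log2 ratios from 3.29 to 4.13 for Col15a1. Those to dentate granule nuclei ran from 2.93 to 3.96 for Col11a1 and from 2.94 to 4.82 for Bcan.

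Calcium and cyclic nucleotide signalling differed in single enzymes. Of 28 calcium buffers and calcium kinases, 6 were at least 2-fold higher and 4 lower than in CA1. Calb1, the buffer calbindin known in CA1 and granule neurons and scarce in CA3, stood at 1.59 to 10.8 CPM over the sets in members against 20.8 to 44.4 in CA1 and 41.6 to 129.5 in dentate granule nuclei, 7.75-fold (95% 5.85 to 10.4) and 24.1-fold (95% 18.4 to 32.2) lower. Itpr1, the calcium release channel, was at 139 CPM against 584, 4.20-fold (95% 3.996 to 4.42) lower. Prkcd, a protein kinase C gene, stood at 19.9 CPM against 2.87, 6.92-fold (95% 4.995 to 9.78) higher, Prkca, another of them, at 1619.7 CPM against 754, 2.15-fold (95% 2.10 to 2.20) higher, and Camk1d at 1279.6 CPM against 618, 2.07-fold (95% 2.02 to 2.12) higher. Relative to the dentate granule class 10 of 29 were higher and 7 lower, with Camk4 5.65-fold (95% 5.21 to 6.13) and Prkca 4.41-fold (95% 4.27 to 4.55) higher and Rasgrf2 5.36-fold (95% 4.92 to 5.86) lower. Of 24 cyclic nucleotide genes, 2 were higher and 5 lower than in CA1. Pde4d, a cAMP phosphodiesterase, was measured at 2844 to 3544 CPM against 822 to 1048, 3.47-fold (95% 3.40 to 3.53) higher, and was 8.87-fold (95% 8.60 to 9.16) higher than in dentate granule nuclei. The adenylyl cyclases Adcy1, Adcy2 and Adcy8, which make cAMP, stood at 52.0 CPM against 153, 2.95-fold (95% 2.71 to 3.22) lower, at 265 CPM against 695, 2.62-fold (95% 2.52 to 2.73) lower, and at 30.2 CPM against 142, 4.71-fold (95% 4.23 to 5.25) lower. None of the 3 cyclases overlapped with CA1 in any set. Rgs9 was 5.45-fold (95% 3.94 to 7.71) lower. With other processing choices, log2 ratios ran from -3.93 to -2.49 for Calb1, from 2.59 to 3.59 for Prkcd and from -2.95 to -1.78 for Rgs9. Those to dentate granule nuclei ran from -5.37 to -4.0 for Calb1 and from -3.02 to -2.31 for Rasgrf2.

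Of 22 growth factor and receptor genes, 3 were at least 2-fold higher and 2 lower than in CA1. Tgfb2 stood at 57.5 to 82.6 CPM over the sets in members against 13.1 to 28.5, 3.66-fold (95% 3.21 to 4.19) higher, Igf1r at 293 CPM against 123, 2.37-fold (95% 2.25 to 2.51) higher, and Ntf3 at 16.2 CPM against 3.68, 4.42-fold (95% 3.27 to 6.06) higher. Nrg1, the ligand of ErbB receptors, was at 428 CPM against 1154, 2.70-fold (95% 2.62 to 2.78) lower, with overlapping sets. In the comparison with granule nuclei 6 of 22 were higher and 5 lower. The receptor kinase Kit was 16.0-fold (95% 12.1 to 21.6) and Fgf1 10.1-fold (95% 7.87 to 13.2) higher, while Nrg2 was 9.71-fold (95% 8.89 to 10.6), Gfra2 6.17-fold (95% 5.14 to 7.44) and Igfbp5 14.3-fold (95% 10.2 to 20.7) lower. Ntf3 was 5.37-fold (95% 4.63 to 6.24) lower than in dentate granule nuclei, so its summed level in members lay between granule and CA1 nuclei. Ntf3 is also a gene of the CA2 score below, and stood at 81.7 CPM in the 112 members high in that score. The 669 members with no UMI of that score had none by construction. Of 7 neuropeptide and granin genes with enough UMIs, the granin Chgb was higher than in both classes. It stood at 125 CPM against 40.3, 3.11-fold (95% 2.83 to 3.42) higher than in CA1 with overlapping sets, and was 2.38-fold (95% 2.17 to 2.61) higher than in dentate granule nuclei. Other settings gave log2 ratios from 3.14 to 4.27 for Fgf1.

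Among 9 glutamate and GABA transporter genes, 3 were at least 2-fold higher than in CA1 and 0 lower, with a median log2 ratio of 0.64. Slc1a2, the glutamate transporter GLT-1 whose mRNA is also known in CA3 neurons, was measured at 305 to 388 CPM over the sets in members against 48.9 to 82.3, 5.20-fold (95% 4.86 to 5.57) higher. Slc1a3, the glial transporter GLAST, stood at 13.8 CPM against 3.34, 4.14-fold (95% 3.01 to 5.78) higher. Astrocytes also express these transporters, and the astrocyte marker sum, which contains Slc1a3, was 23.4 CPM in members and 10.02 in CA1 nuclei. Slc1a3 itself gave 13.8 and 3.34 CPM of these sums, so the sum is no separate gauge for that gene. Without nuclei that held more than 1 UMI of a non-neuronal marker list, the log2 ratio of Slc1a2 was 2.52 rather than 2.38. Against dentate granule nuclei 2 of 9 were higher and 3 lower, with Slc30a3, the zinc transporter of mossy fibre vesicles, at 15.1 CPM against 53.3, 3.53-fold (95% 3.01 to 4.16) lower, and the proline transporter Slc6a7 at 71.9 CPM against 9.11, 7.89-fold (95% 6.46 to 9.71) higher. Of 34 vesicle release genes, 4 were higher and 4 lower than in CA1. Rph3a, rabphilin, was at 96.3 CPM against 11.3, 8.52-fold (95% 7.26 to 10.1) higher, Rims1, an active zone scaffold, at 2388 CPM against 1176, 2.03-fold (95% 1.99 to 2.07) higher, Cadps2 at 117 CPM against 765, 6.55-fold (95% 6.22 to 6.92) lower, Doc2b at 7.56 CPM against 63.2, 8.36-fold (95% 6.79 to 10.4) lower, and Syn3 at 70.3 CPM against 212, 3.02-fold (95% 2.81 to 3.25) lower. Relative to the dentate granule class 6 of 34 were higher and 7 lower, with Sv2b and Sv2c at opposite ends, Sv2c being 20.8-fold (95% 16.1 to 27.4) lower. Across the alternatives, log2 ratios ranged from 2.96 to 4.16 for Rph3a.

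Immediate early genes, which neurons switch on after activity, had the lowest list median against CA1 (-0.79), with 0 of 13 at least 2-fold higher and 5 lower. Arc stood at 26.0, 8.46, 5.81, 8.18, 33.4 and 6.91 CPM in members of sets 1 to 6 and at 104, 11.5, 9.30, 7.74, 44.8 and 20.2 in CA1 nuclei. The sets overlapped, sets 1 and 5 were the highest in both classes, and the log2 ratio of -1.05 became -0.43 without set 1. Nr4a1 was measured at 26.7 CPM against 54.8, 2.05-fold (95% 1.81 to 2.33) lower, Nr4a2 at 14.1 CPM against 30.1, 2.13-fold (95% 1.79 to 2.54) lower, and Egr1 at 4.99 CPM against 12.6, 2.52-fold (95% 1.89 to 3.39) lower, all with overlapping sets. In the comparison with granule nuclei 5 of 11 were higher and 1 lower. Nr4a3 stood at 63.3 CPM against 3.76, 16.8-fold (95% 12.5 to 23.3) higher, Arc at 12.2 CPM against 1.34, 9.10-fold (95% 5.43 to 16.3) higher, and Jun at 10.4 CPM against 43.1, 4.14-fold (95% 3.42 to 5.03) lower. The list median of 0.94 became -0.19 without nuclei that held non-neuronal markers. The second median covers only the genes that still had at least 100 UMIs. With other processing choices, log2 ratios ran from 2.54 to 4.68 for Nr4a3 and from 1.10 to 4.52 for Arc.

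The series title concerns SETD1B, a histone H3 lysine 4 methyltransferase. Setd1b was at 15.5 to 30.2 CPM over the sets in members, 13.2 to 25.8 in CA1 and 5.94 to 22.3 in dentate granule nuclei. Its ratio to CA1 was 1.24 (95% 1.04 to 1.49) and to dentate granule nuclei 1.11 (95% 0.923 to 1.34), with overlapping sets. None of the 6 methyltransferase genes of this family was 2-fold apart from either class. Kmt2a, the MLL1 gene, was lower than in CA1 without overlap, at 213 to 226 CPM against 259 to 279, a ratio of 0.822 (95% 0.784 to 0.863).

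Against the 1480 subicular or cortical nuclei, a mixed class, 500 of 11031 genes (4.53%) were at least 2-fold higher in members and 966 (8.76%) lower. Zbtb20, a transcriptional repressor needed for hippocampal identity, stood at 3494 to 4699 CPM over the sets in members against 152 to 775, 14.2-fold (95% 13.7 to 14.7) higher. Npy2r and Tgfb2 were 14.4-fold (95% 8.71 to 25.6) and 10.9-fold (95% 8.63 to 14.1) higher. Kcnh7 and Cdh6 were 15.4-fold (95% 14.6 to 16.2) and 16.4-fold (95% 13.0 to 20.99) lower, which is the side on which they stood against CA1. Metabotropic glutamate receptors had a median log2 ratio of -2.63 over 7 genes, with 1 higher and 4 lower, and 10 of 35 vesicle release genes were lower and 0 higher.

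Within the members, nuclei with CA2 markers were set apart by a score of 8 genes (Rgs14, Amigo2, Map3k15, Cacng5, Ntf3, Vit, Avpr1b and Necab2). The score gives a range and not a cell type. At least 3 UMIs from at least 2 of these genes were held by 112 members (10.3%), none by 669 (61.8%), and 302 (27.9%) lay between, of which 93 had 2 UMIs. Exactly 3 UMIs were held by 28 of the 112. Sets 1 to 7 held 20, 31, 31, 19, 3, 8 and 0 of the 112. They held 94, 112, 92, 75, 111, 183 and 2 of the 669. The median depth was 17247 UMIs in the 112 against 6371 in the 669, so depth and set make-up differ between the sides. Of 8076 genes with at least 100 UMIs, 193 (2.39%) were at least 2-fold higher in the 112 and 276 (3.42%) at least 2-fold lower. With nuclei thinned to 2000 UMIs these counts were 80 and 176, out of fewer genes that still had at least 100 UMIs.

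Of 9 other CA2 markers outside the score, Ptpn5, the striatal-enriched phosphatase STEP, was measured at 179 CPM against 52.5, 3.41-fold (95% 2.94 to 3.96) higher. Over the 4 sets in which both sides had at least 15 nuclei it ranged from 133 to 274 CPM against 40.2 to 65.0, without overlap. S100b, a calcium-binding protein, stood at 17.9 CPM against 2.52, 7.11-fold (95% 3.90 to 13.5) higher, and Srl, sarcalumenin, at 24.2 CPM against 9.47, 2.55-fold (95% 1.73 to 3.75) higher. Nr3c2, the mineralocorticoid receptor known to hold CA2 identity, was at 1834 CPM against 1028, 1.78-fold (95% 1.71 to 1.86) higher, and Fgf2 at 14.0 CPM against 7.70, 1.82-fold (95% 1.12 to 2.92) higher. Prss23, a secreted protease, stood at 8.22 CPM against 3.70, 2.22-fold (95% 1.13 to 4.28) higher. The intervals of Pcp4 (ratio 1.85, 95% 0.859 to 3.80) and Gsto1 (1.56, 95% 0.654 to 3.45) included 1. Sostdc1 had 5 UMIs in the 112 nuclei and 1 in the 669, a ratio of 16.3 (95% 1.83 to 772). The interval, which covers counting error only, thus lay above 1 for 7 of the 9 markers. Among them the sets overlapped for Fgf2, Prss23 and Sostdc1. The share of all genes with such an interval is not given here, so the count cannot be weighed. For Pcp4 and Gsto1 no difference was detectable at this depth. Over the alternative settings, log2 ratios ran from 1.97 to 3.25 for S100b and from 0.73 to 1.81 for Fgf2.

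The genes furthest above in the 112 nuclei were Egfem1, Adcy1, Col11a1, Asic2 and Osbpl10. Egfem1, a gene with EGF-like domains, was measured at 1292 CPM against 176, 7.36-fold (95% 6.87 to 7.89) higher, and over the 4 sets at 1015 to 1551 CPM against 71.7 to 318. Asic2, an acid-sensing ion channel, stood at 2275 CPM against 404, 5.62-fold (95% 5.36 to 5.90) higher. Adcy1, lower in members than in CA1, was at 186 CPM against 25.01, 7.42-fold (95% 6.18 to 8.95) higher within members, and Col11a1 at 193 CPM against 26.8, 7.22-fold (95% 6.04 to 8.65) higher. Several other genes lower in members than in CA1 nuclei were higher here. Bcl11b stood at 139.7 CPM against 30.5, 4.58-fold (95% 3.82 to 5.51) higher, Meis2 at 154 CPM against 38.8, 3.96-fold (95% 3.36 to 4.69) higher, Epha10 at 141 CPM against 34.3, 4.11-fold (95% 3.45 to 4.91) higher, and Kcnt1 at 44.5 CPM against 11.7, 3.80-fold (95% 2.79 to 5.20) higher. Gm2115, a gene of the CA1 rule, was measured at 122 CPM against 15.1, 8.07-fold (95% 6.39 to 10.3) higher. Kcnk2, a background potassium channel, and Htr7 stood at 214 CPM against 48.7, 4.40-fold (95% 3.80 to 5.09) higher, and at 66.7 CPM against 20.1, 3.31-fold (95% 2.60 to 4.23) higher. Other settings gave log2 ratios from 1.39 to 2.13 for Meis2.

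Several genes higher in members than in CA1 nuclei were lower in the 112 nuclei. Trps1, a gene of the member rule, stood at 442 CPM against 1966, 4.45-fold (95% 4.16 to 4.76) lower, with ranges over the 4 sets of 252 to 857 CPM against 1879.7 to 2271. Nectin3 and Iyd, also of that rule, were 2.03-fold and 3.72-fold lower, while Cpne4 stood at 1267 CPM against 969, 1.31-fold (95% 1.25 to 1.37) higher. Mndal, Cdh9 and Slc1a2 stood at 23.2 CPM against 88.2, 3.80-fold (95% 2.83 to 5.21) lower, at 198 CPM against 814, 4.10-fold (95% 3.71 to 4.55) lower, and at 140.2 CPM against 441, 3.14-fold (95% 2.79 to 3.56) lower. Sema5b was at 4.83 CPM against 64.5, 13.3-fold (95% 7.19 to 28.03) lower, Rph3a at 17.9 CPM against 145, 8.08-fold (95% 5.82 to 11.6) lower, and Ephb1 at 80.2 CPM against 319.7, 3.98-fold (95% 3.40 to 4.69) lower. Synpr, a synaptic vesicle protein, stood at 64.8 CPM against 308, 4.76-fold (95% 3.99 to 5.71) lower, and Nxph1, a neurexophilin, at 4.35 CPM against 40.6, 9.32-fold (95% 4.84 to 20.6) lower. Grik4 differed little, with a ratio of 0.898 (95% 0.859 to 0.938) and ranges of 458 to 1519 CPM against 1012 to 1551. Across the alternatives, log2 ratios ranged from -3.22 to -1.94 for Trps1, from -2.83 to -1.67 for Mndal, from -3.23 to -1.87 for Cdh9, from -4.30 to -2.32 for Sema5b, from -2.62 to -1.82 for Ephb1, from -3.55 to -2.07 for Synpr and from -3.62 to -2.32 for Nxph1.

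**Figure D4:**
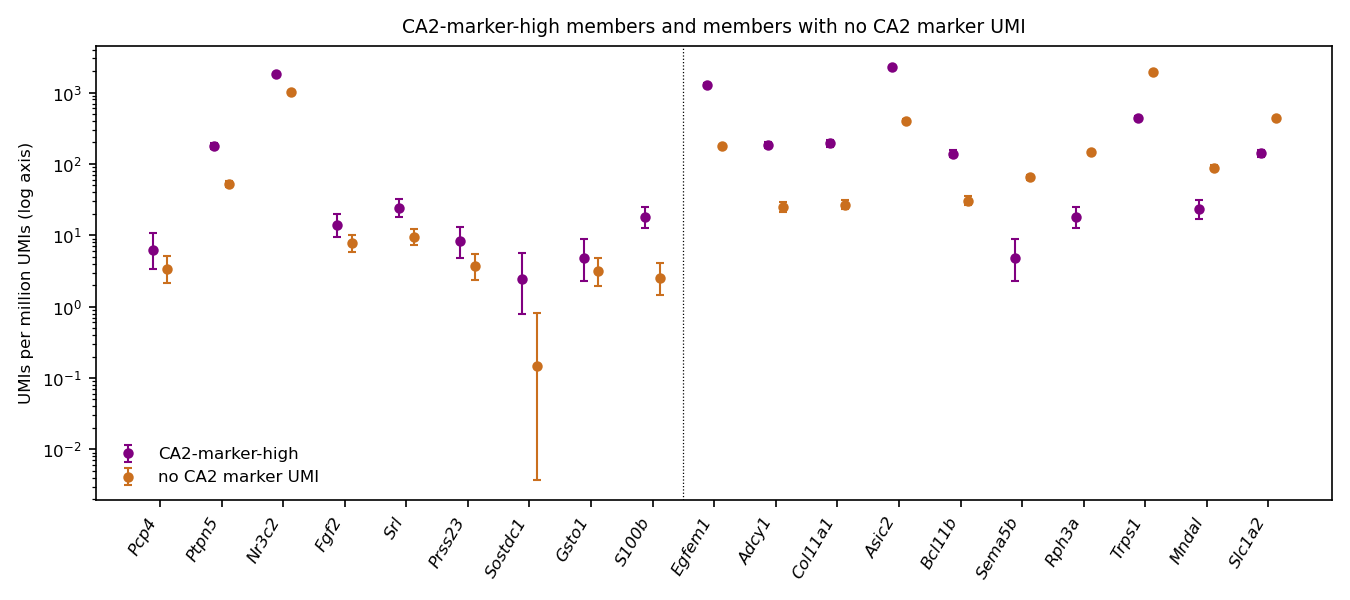
Levels (UMIs per 1000000 UMIs, log axis) of 19 genes in the 112 CA2-marker-high nuclei and in the 669 members with no UMI of a CA2 marker; points are sums over nuclei and bars exact 95% Poisson intervals, which cover counting error only. Egfem1 lies at 1292 CPM in the first and 175.5 in the second, Trps1 at 442 and 1966.

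A few members carried markers of mossy cells, the glutamatergic neurons of the hilus, which share genes with CA3. The mossy marker Csf2rb2 stood at 14.0 CPM in members (5.92 to 23.2), 0.0668 in CA1 and 0 in dentate granule nuclei. At least 1 UMI of it was held by 63 members (5.82%) and at least 2 UMIs by 29 (2.68%). The 29 had 33.3 CPM of Calb2, 69.9 of Drd2 and 270 of Ajap1, other mossy cell markers, where the 1020 members without Csf2rb2 had 2.07, 0.331 and 65.2. Grik4 was lower in the 29, at 738 CPM against 1357, as were Dpf3 (148 against 293) and Nectin3 (183 against 381). Mndal, another of the CA3 markers, went the other way, at 129 CPM against 68.3. These values come from few nuclei chosen by Csf2rb2 and have no test. Without the 29, the log2 ratio of Col19a1 to CA1 was 0.86 rather than 1.61, and that of Il1rapl2 -2.17 rather than -1.39.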

How the data were processed

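Single-nucleus 3′ libraries (10x v3.1, per the labels' protocols) of 10 samples were measured. The deposited UMI counts are a gene by barcode matrix of 24837 genes and 15661 barcodes with 101300889 UMIs, made by the authors with Cell Ranger 4.0.0 on mm10/GRCm38, per the submitters' processing notes. Whether intronic reads were counted is not given in the sources used here. Barcode suffixes could not be tied to samples, so all nuclei are 1 sample, with no test and no p-value. Because counts of a gene depend on its length and on nuclear RNA, levels were not ranked between genes.

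Nuclei with at least 500 UMIs were classed by marker UMIs, counts were summed per class and scaled to 1000000 UMIs, and ratios carry exact 95% intervals that cover counting error only. A gene was compared with at least 100 UMIs over both classes and counted from a 2-fold difference. The named genes were the 8 highest and 8 lowest ratios, with 5 CPM added to each side, among genes with at least 500 UMIs that lay in the same direction in every compared set and outside the class rules. In each list the 3 highest and 3 lowest ratios and those 2-fold apart could be named, and in the CA2-marker-high comparison the 5 highest and 5 lowest with at least 200 UMIs. A few named or listed genes are not reported here, though counts include them. Members, lists and rules were chosen with earlier results of these data known. Of the gene IDs, 24715 matched GENCODE M21. Summing and ratio steps were tested on simulated data.

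Alternatives were a minimum of 1000 UMIs, at least 6 marker UMIs, removal of Scrublet doublets (expected rate 0.05), removal of nuclei with more than 1 UMI of a non-neuronal list, leaving out each barcode set, the median over sets, thinning to 2000 UMIs, unscaled means and at least 500 UMIs per gene. All ranges of log2 ratios given over settings leave out the unscaled means, which moved the all-gene medians as given above. Python 3.11.15, numpy 2.4.6, scipy 1.17.1, pandas 2.3.3, scanpy 1.11.5 and matplotlib 3.10.9 were used.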

Additional observations from a re-analysis of the deposited data

Results flagged for a closer look

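Over the 6 barcode sets with at least 50 members, 46 levels were examined for a set that stands apart from the other sets, and 2 met the limit, where chance alone gives about 1 in 20. Iyd, a gene of the member rule, was at 35.7 CPM in set 6 and at 10.6 to 19.2 CPM in the other sets. Kcnc2 was at 578.4 CPM in set 5 and at 807 to 940 CPM in the others. Sets 5 and 6 are the shallow ones, with medians of 3943 and 3531 UMIs per member.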

How the results depend on the processing

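Counts of genes at least 2-fold apart moved with depth and with the nuclei kept, and so did the number of genes compared. Removing nuclei or thinning left fewer genes with at least 100 UMIs. The shares of the genes compared are not given here, so a smaller count cannot be read as a smaller share. Without nuclei holding non-neuronal markers (476 members, 711 CA1 and 273 dentate granule nuclei left), 358 genes were higher than in CA1, and 503 were higher and 439 lower than in dentate granule nuclei. With nuclei thinned to 2000 UMIs the counts were 282 higher and 248 lower than in CA1, and 453 and 481 for dentate granule nuclei. With at least 500 UMIs per gene, which also compares fewer genes, they were 258 and 261, and 393 and 467. Unscaled means gave 1913 and 447 for dentate granule nuclei. Leaving out 1 barcode set gave 496 to 573 higher and 371 to 412 lower than in CA1, and 739 to 820.0 higher and 750.0 to 843 lower than in dentate granule nuclei. Members numbered 1083 with a minimum of 1000 UMIs, 1019 with at least 6 marker UMIs and 1072 without Scrublet doublets.

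A few directions turned. Without non-neuronal-marker nuclei, log2 ratios were -0.10 for Vcan against CA1, and -0.38 for Cdh7 and -0.16 for Gabrg3 against dentate granule nuclei. There the list medians against dentate granule were -0.077 for extracellular matrix and -0.19 for immediate early genes. The extracellular matrix median was also -0.11 with at least 500 UMIs per gene and -0.079 after thinning. Each of these medians covers only the genes that met the UMI limit under that setting, so the genes can differ from those of the main median. The cause of the turns was not tested.

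In the CA2-marker comparison, at least 5 marker UMIs left 62 nuclei in the high group and gave 557 lower genes, and leaving out 1 set gave 81 to 112 nuclei, 152 to 194 higher and 248 to 288 lower genes. Thinning, which left fewer genes to compare, gave 80 higher and 176 lower. It turned Crhr1 (0.14), Gfra1 (0.33), Rorb (-0.36) and Vcan (-0.035), whose causes were not tested. The CA2 thinning, the restriction to the 4 deeper sets and leaving out members with at least 2 Csf2rb2 UMIs were chosen after seeing the data. No paired analysis was possible because the matrix carries no replicate numbers and no result comes from a test. Genes below 100 UMIs over both classes could not be compared at this depth.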
